A study of Mus musculus with 32 samples.

Results

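The Gadd45 family was examined in 4 organs of mice given cisplatin, a platinum drug that crosslinks neighbouring guanines in DNA. The members were taken by name, as the 3 stress sensor genes Gadd45a, Gadd45b and Gadd45g and the gene of a protein that binds them, Gadd45gip1, and all 4 were found among the 25058 genes that the 3 assays share. The animals were female C57BL/6J mice of 6 to 7 months. They received 10 mg/kg cisplatin by intraperitoneal injection at ZT1 (1 h after lights on), and the protocol places the killing at ZT5, that is 4 h later, although a time label on the samples reads 2 h. Control mice received saline. RNA-seq was made from 2 control and 2 cisplatin libraries of kidney, liver, lung and spleen, 16 in all. XR-seq, which sequences the short DNA pieces cut out by nucleotide excision repair, and Damage-seq, which maps the adducts still present in the genome, were each made from 2 libraries an organ, 8 in all, from cisplatin-treated animals alone. Untreated libraries of these last assays were not analysed here, so their background is not measured and they make no treatment comparison. The labels used here do not state which libraries of different assays came from the same animal. The paper's methods say that chromatin pellets left from the XR-seq preparation were kept for Damage-seq libraries.

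GADD45 proteins are small acidic proteins without known enzyme activity that act by binding others. They bind the kinase MTK1 (gene Map3k4) and so activate the stress kinases p38 and JNK, and they bind PCNA, p21 and the CDK1 and cyclin B1 complex, through which they restrain the cell cycle. They have also been linked to DNA repair and to active DNA demethylation. Gadd45a is a classic target of the tumour suppressor p53, Gadd45b is a target of NF-κB and of TGF-β signalling, and Gadd45g is induced by cytokines. GADD45GIP1, also called CRIF1, binds GADD45 proteins but is not related to them in sequence and is part of the large subunit of the mitochondrial ribosome. Cisplatin adducts in the transcribed strand (TS) stop RNA polymerase and are removed by transcription-coupled repair, while the non-transcribed strand (NTS) depends on global repair.

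In mm10, Gadd45a (ENSMUSG00000036390) lies on the minus strand at chr6:67035096-67037457. Gadd45b (ENSMUSG00000015312) lies on the plus strand at chr10:80930073-80932204, and Gadd45g (ENSMUSG00000021453) on the plus strand at chr13:51846678-51848468. Gadd45gip1 (ENSMUSG00000033751) lies on the plus strand at chr8:84831522-84835482. They are short genes of 2362, 2132, 1791 and 3961 bp. Their transcribed strands held 165, 222, 114 and 351 GG dinucleotides, the main target of cisplatin, and their non-transcribed strands 166, 191, 214 and 309. The GG count matters for Gadd45g, whose NTS offered more targets than its TS.

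The promoters of the 3 sensor genes are shown because these were the members whose RNA rose in kidney. Each run covers 250 bases before and 50 after the RefSeq start site (GRCm38.p6) in the direction of transcription, at chr6:67037358-67037657 for Gadd45a, chr10:80929841-80930140 for Gadd45b and chr13:51846425-51846724 for Gadd45g. Capitals mark matches, on either strand, to the CCAAT box, the octamer ATTTGCAT, the E-box CACGTG and the TATA box TATAAA. The table matched 3 of the 4 members, and Gadd45gip1 was not matched.
Gadd45a: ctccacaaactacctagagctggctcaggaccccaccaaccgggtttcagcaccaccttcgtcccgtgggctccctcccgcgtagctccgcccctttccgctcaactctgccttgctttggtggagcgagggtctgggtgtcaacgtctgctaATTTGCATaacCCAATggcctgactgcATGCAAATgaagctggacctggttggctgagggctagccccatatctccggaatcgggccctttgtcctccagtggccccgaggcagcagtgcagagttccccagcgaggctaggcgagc
Gadd45b: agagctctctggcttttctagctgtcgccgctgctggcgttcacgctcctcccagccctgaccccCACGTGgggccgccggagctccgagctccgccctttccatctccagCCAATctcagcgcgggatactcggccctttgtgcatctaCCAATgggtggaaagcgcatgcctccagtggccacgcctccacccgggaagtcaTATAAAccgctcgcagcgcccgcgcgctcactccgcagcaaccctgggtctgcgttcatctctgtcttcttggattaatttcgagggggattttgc
Gadd45g: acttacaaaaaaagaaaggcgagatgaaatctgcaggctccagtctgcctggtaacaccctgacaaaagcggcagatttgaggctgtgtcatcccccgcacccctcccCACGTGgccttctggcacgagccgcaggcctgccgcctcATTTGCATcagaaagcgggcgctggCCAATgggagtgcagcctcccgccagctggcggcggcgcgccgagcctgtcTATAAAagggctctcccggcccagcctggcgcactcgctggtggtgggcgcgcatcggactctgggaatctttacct

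A CCAAT box occurred in all 3 promoters, and 37.4% of the 32851 promoters in the RefSeq table held one. The octamer occurred in Gadd45a, once on each strand (ATTTGCAT and its reverse complement ATGCAAAT), and in Gadd45g, against 1.74% of all promoters. Gadd45b and Gadd45g each held an E-box and a TATA box, which 7.15% and 13.6% of all promoters held. The TATA box of Gadd45g began 27 bases before the start site and that of Gadd45b 46 bases before it. No promoter held the AP-1 letters TGACTCA or the CRE letters TGACGTCA, present in 5.2% and 1.79% of all promoters. None of the matches overlapped another. These are matches of letters in a fixed window and no measure of binding. The GC content of the windows was 61%, 62% and 62.3%.

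Reads on genes ranged from 15619474 to 162270280 in RNA-seq, from 10658675 to 59779770 in XR-seq and from 1571167 to 6441367 in Damage-seq. RNA levels below are RPKM, reads per kilobase of exon per 1000000 reads, with the library size scaled by the TMM factor of the fit. The kidney marker sum (Umod, Lrp2, Slc34a1, Slc12a1) was 2291 to 3390 RPKM in kidney and at most 8.53 elsewhere, and the liver and lung marker sums were likewise highest in their own organ. B cell markers were highest in spleen, at 895 to 985 RPKM. In lung, the B cell sum was 105 to 106 RPKM in controls and 25.0 to 33.4 after cisplatin, the T cell sum 23.0 to 24.5 and 5.85 to 6.24, and the erythroid sum 6969 to 7318 and 2954 to 3753. The lung marker sum in liver was 11.2 to 19.4 RPKM in controls and 35.2 to 79.4 after cisplatin, and in spleen 7.27 to 8.04 and 21.2 to 23.6. The part of these shifts in the members' values was not tested. In spleen, 5 pancreas genes summed to 5.23 to 5.70 RPKM in controls and 444 to 604 after cisplatin, with 1 of the 5 at 0 in the controls. The 2 control libraries of lung, and those of spleen, were nearly alike: the chi-square per degree of freedom between them was 2.75 and 2.98, against 39.3 to 349 for the other pairs. They differed by more than pure sampling noise but by far less than other pairs, and each was summed and counted as 1 sample, which left 14 samples in the fit. The lung and spleen labels were corrected by the submitters after first release and are used as they now stand.

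Cdkn1a, the p21 gene and a standard p53 target, was looked at first as a check on the treatment. Its RNA was higher in both cisplatin libraries than in both control libraries of every organ. The share of all genes with such a separation was not counted. In kidney it measured 3.57 and 8.00 RPKM in controls and 110 and 123 after cisplatin, a log2 change of 4.33 ± 0.78 (SE, edgeR adjusted p = 0.0188). The changes in liver, lung and spleen were 3.05, 1.90 and 1.43, and their adjusted p-values of 0.0690, 0.781 and 1 missed the threshold.

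After cisplatin, 3 of the 4 members were called higher in kidney, 1 in liver and none in lung or spleen. A missing call does not show that a member did not rise. Gadd45g changed by 1.62 (log2) in lung, uncalled, and by 1.45 in kidney, where it was called. A gene was called when its change exceeded 0.4 on the log2 scale at an adjusted p under 0.05 (edgeR quasi-likelihood test over all 19088 genes). Over all genes, 3.1% were called for kidney, 2.73% for liver, 0.341% for lung and 0.147% for spleen. The unadjusted p was under 0.05 for 1 member in lung, Gadd45g, and for none in spleen, and DESeq2 called no member in either organ. In bulk tissue, a change in RNA per cell and a change in the number of cells of a type cannot be told apart.

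Gadd45a, the p53-responsive member, had the largest change of the family and was the only member whose response differed between organs in the test. In kidney it measured 15.0 and 13.4 RPKM in the control libraries and 114 and 128 in the cisplatin libraries. Both treated libraries stood far above both controls, and the fold was 8.53 (log2 3.09 ± 0.26 SE, adjusted p = 0.000333). In liver the controls measured 3.82 and 5.12 RPKM and the treated libraries 5.77 and 7.14. In lung the control libraries measured 6.31 and 6.40 RPKM and the treated libraries 9.36 and 9.86. The log2 changes of 0.53 ± 0.25 in liver and 0.59 ± 0.30 in lung did not pass the test (adjusted p = 0.591 and 0.991). In spleen the controls, 8.56 and 7.98 RPKM, lay between the treated libraries, 11.4 and 7.76. The log2 change there was 0.23 ± 0.30 (adjusted p = 1).

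**Figure D1:**
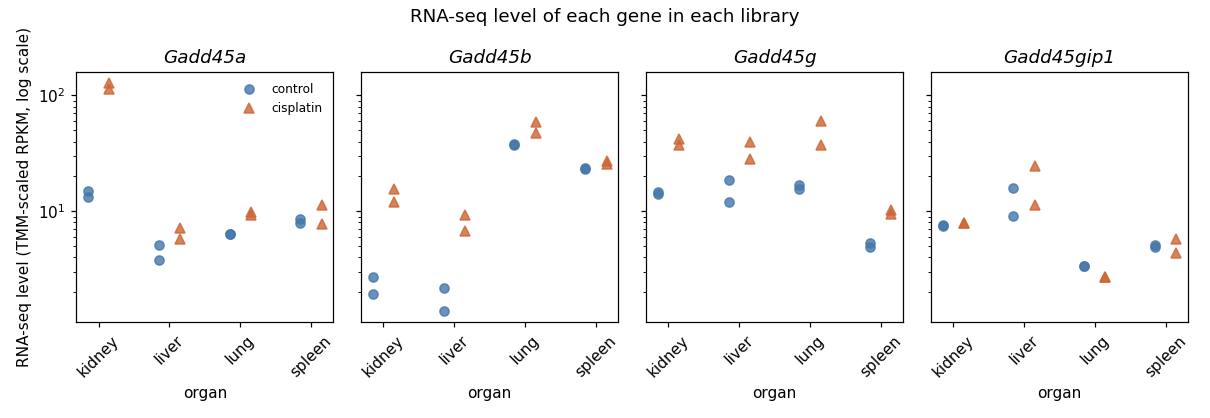
RNA-seq level of each member in every library, as TMM-scaled RPKM on a log axis, by organ. Circles are control and triangles cisplatin libraries. The 2 kidney cisplatin libraries of Gadd45a, at 114 and 128 RPKM, are the highest points of the plot, and Gadd45b starts high in lung and spleen.

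The kidney response of Gadd45a exceeded that of each other organ. The difference of log2 changes was 2.56 ± 0.35 (SE) against liver, 2.50 ± 0.37 against lung and 2.86 ± 0.37 against spleen, with edgeR adjusted p of 0.0309, 0.0362 and 0.0101. Such differences were called for 0.0786%, 0.131% and 0.32% of all genes. The calls against liver and lung were lost with DESeq2 size factors and when any 1 of the 4 kidney libraries, either control library of liver or either cisplatin library of lung was left out, and that against spleen without kidney control replicate 1 (2.95), control replicate 2 (2.78) or cisplatin replicate 2 (2.77), while the size of the difference stayed between 2.34 and 3.17 for the 3 pairs. Among the other organ pairs, 0% of genes were called for liver against lung (edgeR, with 1277 genes at an unadjusted p under 0.05), 0.0367% for liver against spleen and 0.0105% for lung against spleen, and no member was among them.

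Gadd45b, the NF-κB-responsive member, rose in kidney and liver. In kidney the control libraries measured 1.92 and 2.72 RPKM and the cisplatin libraries 12.1 and 15.7, a 5.94-fold rise (log2 2.57 ± 0.30 SE, adjusted p = 0.00245). In liver the controls measured 1.38 and 2.18 RPKM and the treated libraries 9.23 and 6.71, a 4.49-fold rise (log2 2.17 ± 0.31 SE, adjusted p = 0.00594). The kidney and liver groups were well apart. The liver call was lost when liver was fitted alone, where no gene passed (1242 had an unadjusted p under 0.05), and without control replicate 1, where the change was 1.87. In lung the controls measured 38.4 and 37.3 RPKM and the treated libraries 58.6 and 47.5. In spleen the values were 23.0 and 23.7 RPKM in controls and 27.0 and 25.4 after cisplatin. Neither the lung change of 0.49 ± 0.35 nor the spleen change of 0.16 ± 0.34 passed. No difference of the Gadd45b response between organs passed in the fit of 14 samples. The kidney response was 2.41 ± 0.44 above that of spleen (adjusted p = 0.0542), 2.08 ± 0.44 above lung (adjusted p = 0.140) and 0.40 ± 0.42 above liver (adjusted p = 0.990). With the 16 libraries kept apart, the differences from spleen and lung, 2.33 and 2.05, passed (adjusted p = 0.00448 and 0.0130).

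Gadd45g, the cytokine-inducible member, rose in kidney, and its change was positive in each organ. In kidney it measured 14.0 and 14.7 RPKM in controls and 41.8 and 37.0 after cisplatin, a 2.74-fold rise (log2 1.45 ± 0.30 SE, adjusted p = 0.0438). This call lay close to the threshold and was lost with DESeq2 (1.38, adjusted p = 0.0618), with plain library sizes, and without any 1 of the kidney libraries, where the change was 1.36 to 1.51. In liver it measured 11.9 and 18.7 RPKM in controls and 39.5 and 28.5 after cisplatin. In lung it measured 16.8 and 15.5 RPKM in controls and 37.1 and 60.0 after cisplatin. In spleen it measured 4.95 and 5.27 RPKM in controls and 9.38 and 10.3 after cisplatin. The log2 changes of 1.15 ± 0.30 in liver, 1.62 ± 0.39 in lung and 0.93 ± 0.37 in spleen had adjusted p of 0.131, 0.178 and 1. With the 16 libraries kept apart, the liver and lung changes of 1.15 and 1.63 passed (adjusted p = 0.04996 and 0.00990). The 4 responses of Gadd45g ranged from 0.93 to 1.62, and no difference between organs passed the test (adjusted p of 0.844 or more).

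Gadd45gip1, the mitochondrial ribosome protein gene, was not called in any organ. In kidney it measured 7.67 and 7.49 RPKM in controls and 7.95 and 7.91 after cisplatin. In liver it measured 9.12 and 15.96 RPKM in controls and 11.4 and 24.5 after cisplatin. The liver groups overlapped and each spread widely. In lung it measured 3.38 and 3.39 RPKM in controls and 2.72 and 2.71 after cisplatin, and in spleen 5.08 and 4.95 in controls and 5.74 and 4.38 after cisplatin. The log2 changes were 0.07 ± 0.36, 0.52 ± 0.36, -0.32 ± 0.43 and 0.02 ± 0.43, with adjusted p from 0.698 to 1.

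**Figure D2:**
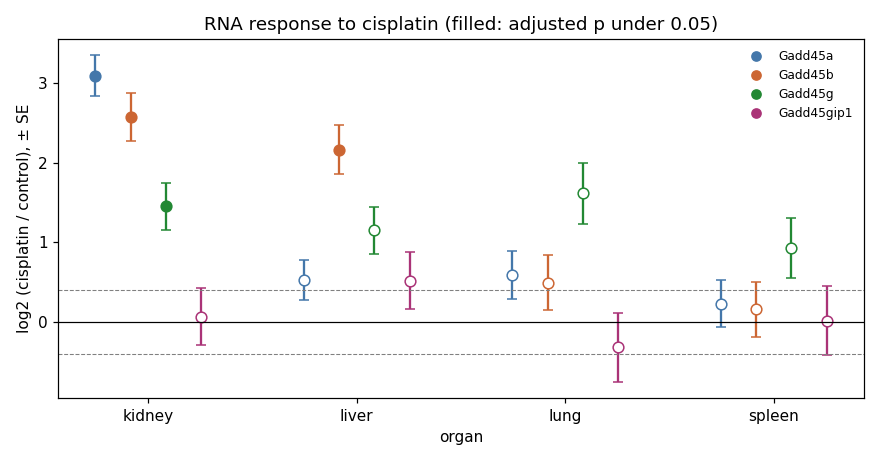
Log2 change of each member after cisplatin in each organ, from the edgeR fit, with bars of 1 SE and filled symbols where the change was called. Dashed lines mark the tested threshold of 0.4. Gadd45a is high in kidney alone, at 3.09, and Gadd45b in kidney and liver. Gadd45gip1, uncalled in each organ, runs from -0.32 in lung to 0.52 in liver.

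The members also differed in where they were expressed without drug. Among controls, Gadd45a was highest in kidney at 14.2 ± 1.2 RPKM (SD, n = 2), then spleen at 8.16 (n = 1), lung at 6.38 (n = 1) and liver at 4.47 ± 0.92 (n = 2). Kidney exceeded all 3 others (fold 3.17 over liver, 2.22 over lung and 1.74 over spleen, adjusted p = 0.000319, 0.0134 and 0.0485), and spleen exceeded liver (adjusted p = 0.0273), while lung did not differ from its neighbours beyond the spread. After cisplatin the kidney level was 121 ± 9.5 RPKM, at the 97.9th percentile of genes, and the other organs lay between 6.45 and 9.61 RPKM.

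Gadd45b had another order. Its controls measured 37.6 RPKM in lung and 23.5 in spleen (each n = 1), against 2.32 ± 0.57 in kidney and 1.78 ± 0.57 in liver (SD, n = 2). Lung and spleen each exceeded kidney and liver (kidney or liver minus lung or spleen lay between -4.40 and -3.32 on the log2 scale, adjusted p from 4.57e-06 to 1.72e-05). Lung against spleen and kidney against liver did not pass. The treated kidney and liver levels, 13.9 ± 2.5 and 7.97 ± 1.8 RPKM, stayed below the untreated levels of lung and spleen in these libraries.

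Gadd45g was lowest in spleen, at 5.17 RPKM (n = 1), and measured 14.4 ± 0.48 in kidney, 15.3 ± 4.8 in liver and 15.8 in lung. These 3 organs each exceeded spleen (fold 2.78, 2.96 and 3.06, adjusted p = 0.00846, 0.00613 and 0.0160) and were not told apart from each other. Gadd45gip1 measured 12.5 ± 4.8 RPKM in liver, 7.58 ± 0.13 in kidney, 4.99 in spleen and 3.38 in lung. Liver exceeded lung and spleen (adjusted p = 0.00764 and 0.0326), and the remaining pairs did not pass. These contrasts were called for many genes: 36.5% for kidney against liver, 36.2% for kidney against lung, 50.1% for kidney against spleen, 45.3% for liver against lung, 51% for liver against spleen and 28.5% for lung against spleen. Contrasts with liver depended on the scaling. Without the TMM factor, control Gadd45g was 16.1 RPKM in kidney, 9.17 in liver and 6.46 in spleen, and control Gadd45gip1 was 8.52, 7.47 and 6.34, so that kidney came above liver for each. In an edgeR fit with library size alone, liver over spleen fell short of the threshold for Gadd45g (fold 1.40, adjusted p = 0.323) and Gadd45gip1 (fold 1.18, adjusted p = 0.564), as did liver over lung for Gadd45gip1 (fold 1.67, adjusted p = 0.106) and kidney over spleen for Gadd45a (fold 1.55, adjusted p = 0.0991). In that fit, liver was below lung for Gadd45a and Gadd45g (log2 -1.65 and -1.19, adjusted p = 0.000676 and 0.0264) and kidney above liver for Gadd45b (log2 1.28, adjusted p = 0.0102). With DESeq2 size factors, 1 call was lost, that of Gadd45a in spleen over liver (liver minus spleen -0.67, adjusted p = 0.102).

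The genes whose level most resembled each member over the 14 samples were listed by Pearson correlation of log2 CPM, as a description. Gpr3 (r = 0.957), Tprn (r = 0.942) and 1700047G03Rik (r = 0.941) were most like Gadd45a. Csnk1e (r = 0.9496), Slfn5 (r = 0.941) and Acap3 (r = 0.940) were most like Gadd45b. Id1 (r = 0.917), Hspb1 (r = 0.911) and Rxylt1 (r = 0.904) were most like Gadd45g. Phb2, a prohibitin of the inner mitochondrial membrane (r = 0.984), and Atox1, a copper chaperone (r = 0.984), were among those most like Gadd45gip1. The samples share organs and treatment, so such values reflect both.

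Known regulators of the family were followed as a list of 15 genes, all of them tested. In kidney 5 rose and none fell, in liver 1 rose, and none was called in lung or spleen by edgeR or DESeq2, where none had an unadjusted p under 0.05 either. The list median log2 change was 0.56 for kidney, 0.26 for liver, -0.09 for lung and -0.09 for spleen, against 0.00, 0.00, 0.01 and -0.03 over all genes. Egr1, an immediate-early transcription factor, had the largest kidney change, from 0.738 and 2.03 RPKM to 20.9 and 28.5 (log2 4.13 ± 0.52 SE, adjusted p = 0.00264). Myc, a growth-promoting transcription factor that can repress Gadd45a, went in kidney from 2.13 and 2.15 RPKM to 18.1 and 17.99 (log2 3.07 ± 0.22 SE, adjusted p = 0.000112). Myc also rose in liver (1.26 ± 0.21 SE, adjusted p = 0.0235). Ddit3 and Atf4, transcription factors of the integrated stress response, rose in kidney by 2.28 ± 0.26 and 1.74 ± 0.26 (adjusted p = 0.00241 and 0.00946). Rela, the p65 subunit of NF-κB, rose in kidney by 1.90 ± 0.34 (adjusted p = 0.0185). For Egr1, Ddit3, Rela and Atf4 the liver changes were 1.23, 0.49, 1.30 and 0.34, and none of these passed.

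Effectors and binding partners formed a list of 19 genes, all tested. In kidney 3 rose, Cdkn1a, Map2k3 and Pcna. Map2k3, a kinase that activates p38, changed by 1.27 ± 0.20 (adjusted p = 0.0176) and Pcna, the sliding clamp of DNA polymerases, by 1.15 ± 0.20 (adjusted p = 0.0281). In liver 1 fell, Map3k4, the kinase that GADD45 proteins bind, by 1.63 ± 0.24 (log2, adjusted p = 0.00864). Map3k4 was also lower in kidney (-1.07, edgeR adjusted p = 0.0736), lung (-1.02, adjusted p = 0.332) and spleen (-0.38), where it was not called. Map2k3 and Pcna lay outside the rule for named genes and were chosen after their values were seen. In lung edgeR called none (7 had an unadjusted p under 0.05) and DESeq2 called 1. In spleen both called none and no unadjusted p was under 0.05. DESeq2 called 5 of the list in kidney and 2 in liver. In kidney 7 of the 19 changes were above 0 and 12 below it. The list medians were -0.44, -0.46, -0.26 and -0.19 in kidney, liver, lung and spleen, against 0.00, 0.00, 0.01 and -0.03 over all genes. Of all genes, edgeR called 3.1%, 2.73%, 0.341% and 0.147% in these organs.

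Partners in DNA demethylation reported here were 8 genes, all tested, of which 1 fell in kidney. In kidney Tet1, a dioxygenase that oxidizes methylcytosine, measured 0.299 and 0.215 RPKM in controls and 0.0374 and 0.0512 after cisplatin (log2 change -2.49 ± 0.53, adjusted p = 0.0360). Its changes in the other organs were also negative and not called. They were -3.44 in liver, on 12 and 4 control and 0 and 1 treated reads, -0.73 in lung and -0.48 in spleen. DESeq2 also called 1 in kidney. In liver, lung and spleen neither edgeR nor DESeq2 called any of the 8, of which 1 had an unadjusted p under 0.05 in liver and 0 in lung and spleen. The list medians were 0.10, 0.10, -0.09 and -0.13 for kidney, liver, lung and spleen, against 0.00, 0.00, 0.01 and -0.03 over all genes.

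Gadd45gip1 was set beside 79 genes of the mitochondrial ribosome and its partners, all tested, and neither edgeR nor DESeq2 called any in any organ. An unadjusted edgeR p was under 0.05 for 2 for kidney, 1 for liver, 1 for lung and 0 for spleen. Of all genes, edgeR called 3.1%, 2.73%, 0.341% and 0.147% in these organs. The list medians were 0.16 for kidney, 0.40 for liver, -0.11 for lung and 0.12 for spleen, against 0.00, 0.00, 0.01 and -0.03 over all genes. Gadd45gip1 itself had 0.07, 0.52, -0.32 and 0.02.

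XR-seq gave many excised reads from the transcribed strand of the 3 sensor genes. Levels are RPM per 1000 GG, that is, reads per 1000000 reads on genes divided by the GG count of the strand in units of 1000. On the TS, Gadd45a, Gadd45b and Gadd45g lay between the 94.9th and the 99.7th percentile of 21720 genes in every organ. Gadd45gip1 lay at percentiles from 88.1 in kidney to 95.7 in spleen, where it was above Gadd45b at 94.9. Over the 4 organs the log2 ratio of TS to NTS per GG was 1.75 ± 0.23 (SE) for Gadd45a, 4.09 ± 0.37 for Gadd45b and 3.68 ± 0.38 for Gadd45g, with edgeR adjusted p of 0.000114, 9.23e-06 and 2.44e-05. The median over all genes was 2.35, and 70.2% of genes were called, so Gadd45b and Gadd45g lay above the middle of genes and Gadd45a below it. Gadd45gip1 had a ratio of 0.11 ± 0.17 (adjusted p = 0.620), at the 22.0th percentile. In an exact two-sided sign-flip permutation test over the 8 libraries, unadjusted p was 0.0156 for Gadd45a, 0.00781 for Gadd45b and Gadd45g (the smallest this test can give) and 0.461 for Gadd45gip1.

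Gadd45b had the highest ratio of the members. Its TS level was 97.4 and 87.3 in the kidney libraries, 78.2 and 64.0 in liver, 87.3 and 75.0 for lung and 72.7 and 52.7 for spleen. Its NTS level was 9.10 and 6.19 for kidney, 1.59 and 8.09 for liver, 7.01 and 4.18 for lung and 1.97 and 2.87 for spleen. No NTS value came near a TS value. Of its 4896 TS and 283 NTS reads, 94.5% came from the TS (95% Wilson interval 93.9 to 95.1%, for counting error only). By library the share ran from 90.2 to 98.3%, both of them in liver. The log2 ratios per GG were 3.62 for kidney, 4.23 for liver, 3.89 for lung and 4.61 for spleen, all called. The called share of all genes was 57%, 53%, 60.8% and 59.2% in these organs.

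The TS level of Gadd45g was highest in the kidney libraries. It was 116 and 151 for kidney, 67.1 and 57.1 for liver, 77.8 and 78.9 for lung and 78.2 and 77.5 for spleen. Its NTS level was between 1.75 and 15.2 in the 8 libraries, below every TS value. The log2 ratios were 3.85, 3.10, 3.36 and 4.40 in kidney, liver, lung and spleen, all called. The liver call was lost without liver replicate 1 (2.46) and the lung call without lung replicate 2 (2.90).

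The ratio of Gadd45a was called in 3 organs and not in liver. Its TS level was 136 and 123 for kidney, 74.9 and 44.4 for liver, 78.4 and 80.5 for lung and 88.1 and 75.9 for spleen. Its NTS level was 27.8 and 39.9 for kidney, 54.4 and 58.0 for liver, 9.07 and 11.9 for lung and 19.2 and 19.5 for spleen. In liver the NTS values lay within the range of the TS values, and in the other organs the strands were apart. The log2 ratio was 1.95 ± 0.46 (SE) in kidney, 2.93 ± 0.48 in lung and 2.08 ± 0.47 in spleen, all called, and 0.04 ± 0.45 in liver (adjusted p = 0.969). The liver ratio was 2.90 ± 0.65 below that of lung (adjusted p = 0.0183). Its differences of 2.04 ± 0.64 from spleen and 1.92 ± 0.64 from kidney did not pass (adjusted p = 0.0787 and 0.139). Leaving out any 1 of the liver or lung libraries took the liver and lung difference past 0.05, with values between -3.32 and -2.47 (liver minus lung). For differences of the ratio, 5.17% of genes were called for kidney against liver, 9.53% for kidney against lung, 8.94% for kidney against spleen, 17.6% for liver against lung, 12.5% for liver against spleen and 1.1% for lung against spleen. Over all genes the median difference was -0.80 for liver minus lung, -0.72 for liver minus spleen and 0.30 for kidney minus liver.

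**Figure D3:**
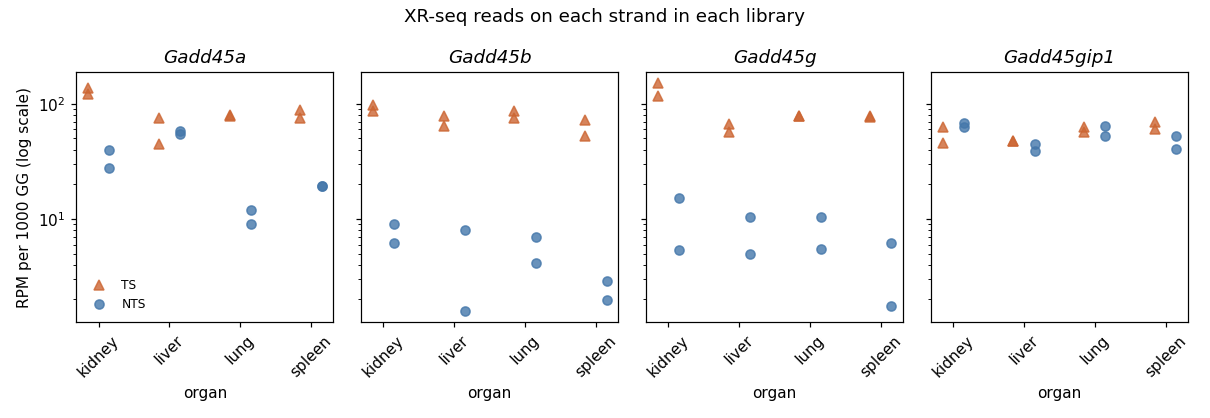
XR-seq level of each strand in every library, in RPM per 1000 GG on a log axis. Triangles are the TS and circles the NTS. The strands are far apart for Gadd45b and Gadd45g, meet for Gadd45a in liver alone, and lie together for Gadd45gip1 in each organ.

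Gadd45a shares its 5′ end with E230016M11Rik, a non-coding gene transcribed on the opposite strand at chr6:67036599-67080654. The genes overlap over 859 bp, and 337 bp are exons of both, 19.1% of the Gadd45a exon bases. In the overlap, the NTS of Gadd45a is the TS of E230016M11Rik. The XR-seq TS level of E230016M11Rik over its whole length was 31.6 and 30.3 in liver, against 19.96 and 17.5 in kidney, 6.68 and 8.13 in lung and 8.55 and 13.3 in spleen. The liver libraries were thus the highest, as they were for the Gadd45a NTS, and the part of the overlap in that result was not tested. In RNA-seq E230016M11Rik stayed between 0.0434 and 0.885 RPKM in the 16 libraries. It was not called in any organ. How RNA reads in the shared exons were divided between these genes is not known. The paper's methods do not state whether the RNA libraries marked strand.

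**Figure D4:**
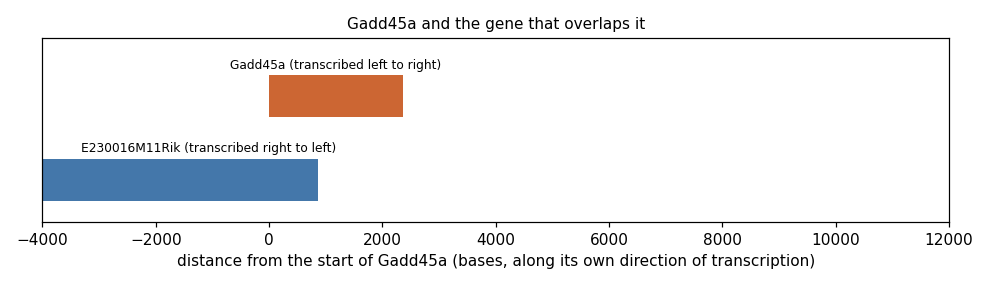
Positions of Gadd45a and of E230016M11Rik, which overlaps it, in bases from the start of Gadd45a along its own direction. E230016M11Rik runs off the left edge. The overlap is 859 bp at the 5′ end of Gadd45a.

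In XR-seq Gadd45gip1 had 45.8 and 63.2 on the TS and 68.1 and 62.4 on the NTS in kidney, and 47.7 and 47.3 on the TS and 38.6 and 45.1 on the NTS in liver. In lung it had 56.6 and 62.8 on the TS and 64.6 and 52.8 on the NTS, and in spleen 69.8 and 60.5 on the TS and 40.4 and 53.1 on the NTS. The strands overlapped in kidney and lung and stayed close in liver and spleen, and no organ was called. The NTS of Gadd45gip1 lay at the 97.3rd to 99.3rd percentile of genes.

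Between organs, TS levels of Gadd45a and Gadd45g, as shares of library reads, were higher in kidney than in liver. The log2 difference was 1.12 ± 0.29 (SE) for Gadd45a and 1.11 ± 0.31 for Gadd45g (edgeR adjusted p = 0.00662 and 0.0108). With TMM factors computed on the strand these became 0.74 and 0.72 and no longer passed (adjusted p = 0.0619 and 0.0851), and the same held for each without liver replicate 2 (0.79 and 0.99) and for Gadd45a with DESeq2 (0.74). Gadd45b and Gadd45gip1 were not called for any pair on the TS. The called share of genes was 44.4% for kidney against liver, 25.2% for kidney against lung, 29.6% for kidney against spleen, 46.5% for liver against lung, 43.2% for liver against spleen and 21% for lung against spleen. For kidney minus liver the median log2 difference over all genes was 0.30.

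On the NTS only Gadd45a was called with reads on genes as library size. It was higher in liver than in lung (log2 difference 2.42 ± 0.41 SE, adjusted p = 0.000956) and spleen (1.54 ± 0.40, adjusted p = 0.0181), and higher in kidney than in lung (1.697 ± 0.40, adjusted p = 0.0106). The difference between liver and lung passed under each alternative run. The other 2 were lost with TMM factors computed on the strand (liver over spleen 1.19, kidney over lung 0.88) and with DESeq2, liver over spleen also without any 1 of the liver or spleen libraries, and kidney over lung without lung replicate 1 (1.51). For Gadd45gip1, liver minus lung was -0.49 (adjusted p = 0.173), and it passed with TMM factors computed on the strand (-1.09, adjusted p = 0.00697) and with DESeq2 (-1.12, adjusted p = 0.000118). On the NTS, 11.5% of genes were called for kidney against liver, 19.4% for kidney against lung, 18.2% for kidney against spleen, 20.7% for liver against lung, 17% for liver against spleen and 6.32% for lung against spleen. The median log2 difference over all genes was 0.66 for liver minus lung, 0.48 for liver minus spleen and 0.70 for kidney minus lung.

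Damage-seq found fewer adduct reads on the TS than on the NTS of Gadd45a and Gadd45b. Over the 4 organs the log2 ratio of TS to NTS per GG was -1.60 ± 0.50 (SE) for Gadd45a and -1.71 ± 0.51 for Gadd45b (edgeR adjusted p = 0.00455 and 0.00255), at the 2.92nd and 2.12th percentile of 22946 genes. It was -0.53 ± 0.52 for Gadd45g and -0.30 ± 0.42 for Gadd45gip1 (adjusted p = 0.470 and 0.632). Of all genes 40.8% were called. In the exact two-sided sign-flip permutation test over 8 libraries, unadjusted p was 0.0156, 0.00781, 0.836 and 0.680 in the same order. For Gadd45g, spleen replicate 1 held 0 reads on both strands. Its log2 ratio of 0.91 in that test came only from the added 0.5 reads and the GG counts. The mean log2 ratio of Gadd45g in that test was -0.11. The Gadd45a call was lost without liver replicate 1 (-1.33) or spleen replicate 1 (-1.28). The Gadd45g value moved to -1.41 when reads were not divided by GG, and then passed (adjusted p = 0.0139).

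The reads behind these values were few. Gadd45a had 28 reads on the TS and 81 on the NTS in the 8 libraries together, Gadd45b 51 and 121, Gadd45g 34 and 89, and Gadd45gip1 81 and 63. The TS share of reads was 25.7% for Gadd45a (95% Wilson interval 18.4 to 34.6%), 29.7% for Gadd45b (23.3 to 36.9%), 27.6% for Gadd45g (20.5 to 36.1%) and 56.2% for Gadd45gip1 (48.1 to 64.1%). Intervals and floors cover counting error only. These shares are not divided by GG, and the NTS of Gadd45g holds 214 GG against 114 on its TS.

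By library, Gadd45a had 8 and 10 TS reads against 28 and 13 NTS reads in kidney, 1 and 3 against 10 and 5 in liver, 1 and 3 against 4 and 16 in lung, and 0 and 2 against 3 and 2 in spleen. The TS count was lower in 7 of 8 libraries and equal in the last. No organ was called for Gadd45a by itself, with log2 ratios from -2.20 to -1.10. Gadd45b had 22 and 20 TS reads against 43 and 31 in kidney, 1 and 2 against 6 and 3 in liver, 0 and 4 against 10 and 25 in lung, and 0 and 2 against 1 and 2 in spleen. Lung was called (-3.30 ± 0.75, adjusted p = 0.000108), and the others, from -1.72 to -0.80, were not. The 0 reads of lung replicate 1 allow up to 2.54 RPM per 1000 GG on the TS, where the NTS of that library measured 9.83.

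Gadd45g had 6 and 9 TS reads against 27 and 26 NTS reads in kidney, 1 and 1 against 4 and 7 in liver, 7 and 8 against 2 and 18 in lung, and 0 and 2 against 0 and 5 in spleen. The lung libraries went opposite ways, and per GG the organ ratios ranged from -1.48 to 0.68. Gadd45gip1 had 20 and 23 TS reads against 23 and 7 NTS reads in kidney, 6 and 3 against 5 and 4 in liver, 8 and 19 against 4 and 13 in lung, and 0 and 2 against 4 and 3 in spleen. Its organ ratios ranged from -1.95 to 0.51. Neither gene was called in an organ, where 19.2% of all genes were called for kidney, 30.4% for liver, 26.1% for lung and 12.7% for spleen.

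**Figure D5:**
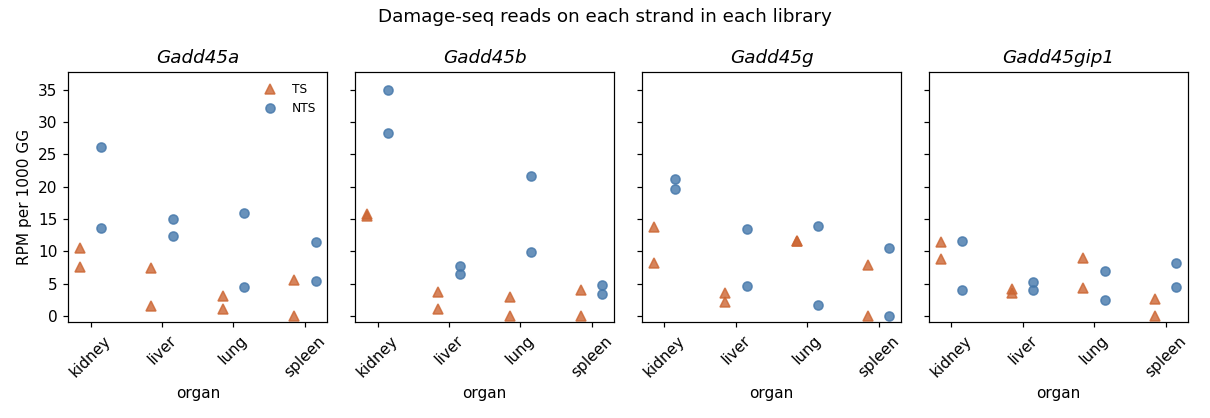
Damage-seq level of each strand in every library, in RPM per 1000 GG on a linear axis that begins just below 0. Triangles are the TS and circles the NTS. Gadd45b in kidney has the highest points, at 35.0 and 28.3 on the NTS, and the NTS lies above the TS in 7 of 8 libraries of Gadd45a.

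Damage-seq levels of Gadd45b were highest in kidney. Its kidney TS level, 15.4 and 15.7 RPM per 1000 GG, stood above the 0 to 4.08 of the other 6 libraries. On the TS kidney exceeded liver by 2.80 ± 0.89 and lung by 3.20 ± 0.80 (log2, edgeR adjusted p = 0.0100 and 0.00214), and the difference of 2.66 ± 1.01 from spleen did not pass (adjusted p = 0.0711). On the NTS the kidney libraries had 35.0 and 28.3, against 7.78 and 6.44 in liver, 9.83 and 21.6 for lung and 3.33 and 4.74 for spleen. There kidney exceeded liver by 2.11 ± 0.55 and spleen by 2.89 ± 0.72 (adjusted p = 0.00417 and 0.00511). The TS difference from liver was lost without liver replicate 1 (2.04) or either kidney library, and both NTS differences were lost without kidney replicate 1 (1.94 against liver and 2.72 against spleen). That against liver was also lost without liver replicate 1 (2.27), and that against spleen without spleen replicate 1 (2.71) or 2 (3.20). Mean Gadd45b RNA after cisplatin, given for comparison, was lowest for liver at 7.97 RPKM. Kidney followed at 13.9, then spleen at 26.2 and lung at 53.0. Liver thus had less of this RNA than kidney and also lower Damage-seq levels on each strand. A link between RNA and adduct levels was not tested.

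Of the other members, Gadd45gip1 alone was called between organs, on the TS for kidney over spleen (2.69 ± 0.92, adjusted p = 0.0400), a value that rested on 20 and 23 reads against 0 and 2. It was lost without any 1 library of either organ (1.94 to 7.01) and with TMM factors computed on the strand (2.57). Gadd45a and Gadd45g were not called for any pair on either strand. On the TS, 30.3% of genes were called for kidney against liver, 15.4% for kidney against lung, 10.8% for kidney against spleen, 6.94% for liver against lung, 5.29% for liver against spleen and 1.01% for lung against spleen. On the NTS the shares were 17.5%, 15.4% and 10.4% for kidney against liver, lung and spleen. They were 0.00454% for liver against lung, 0.00909% for liver against spleen and 0.0136% for lung against spleen. Over all genes the median log2 difference of kidney minus liver, lung and spleen was 0.33, 0.15 and 0.16 on the TS. On the NTS it was 0.07, 0.09 and 0.13.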

How the data were processed

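Per the labels and the study's methods, RNA came from poly-A libraries made with the NEBNext Ultra RNA kit and sequenced in pairs. The paper's methods do not state whether these libraries marked strand. RNA reads were aligned with STAR and counted per Ensembl gene with featureCounts. XR-seq and Damage-seq reads were trimmed with cutadapt, aligned to mm10 with BWA, deduplicated with Picard, filtered on mapping quality and on a GG at the adduct position, and split by strand. Tool versions, and how reads on overlapping genes were counted, are not given in the sources used here, so counts of genes that overlap others are uncertain. All deposited values are raw read counts made by the authors, 1 file per library. In all, 16 rows without a gene identifier were left out.

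RNA counts were fitted with edgeR 4.0.16 (R 4.3.3) over 14 samples in 8 groups, with TMM factors, the filterByExpr filter, a quasi-likelihood fit and glmTreat against 0.4, and Benjamini-Hochberg adjustment over all genes in each organ. SE came from the test against 0. Differences between organs were tested against 0. Strand ratios used an edgeR fit of 16 columns with library as block, the GG count as offset and at least 20 reads. Organs were compared on each strand with reads on genes as library size. Per-library log2 ratios added 0.5 reads, and a count of 0 was taken to allow 3 reads. A control pair whose chi-square per degree of freedom was at most 3 was summed into 1 sample. Alternatives were DESeq2 1.42.0, other scalings, filters and blocks, and leaving out each library. Of these, 2 scalings of the control levels were chosen after seeing the data. The scripts were tested on simulated data with known changes. The paper describes the 2 libraries of a group as biological replicates, and the labels do not name the animal of each. The p-values measure the spread between these libraries, estimated for each gene over all groups of a fit and drawn towards that of other genes. In the RNA fit the summed controls of lung and spleen gave no spread of their own.

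The 4 members, the gene lists, the markers and the tests were chosen with earlier results of these data known, so no list is independent evidence. Named list genes were those called in an organ, up to 8 by the size of the change. A few other genes, 1 of them from the demethylation list, are not reported here. Gene positions came from the mm10 annotation and promoters from RefSeq (GRCm38.p6).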

Additional observations from a re-analysis of the deposited data

Results flagged for a closer look

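The RNA response of Gadd45a to cisplatin differed between organs by a test of the difference itself. The kidney response exceeded that of liver by 2.56 on the log2 scale, that of lung by 2.50 and that of spleen by 2.86, and in kidney both cisplatin libraries stood above both controls. The change in kidney itself passed without each of its 4 libraries in turn, but the differences from liver and lung were lost without any 1 kidney library and that from spleen without 3 of the 4.

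The XR-seq ratio of TS to NTS reads of Gadd45a also differed, with the liver minus lung difference at -2.90 on the log2 scale (edgeR adjusted p = 0.0183). Over all genes the median of that difference was -0.80. In liver 1 library had a log2 ratio above 0 and 1 below it, and in lung the log2 ratios were 3.10 and 2.75. The opposite-strand gene E230016M11Rik had its highest XR-seq level in liver, and its part in this difference was not tested.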

How the results depend on the processing

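With 2 libraries a group, calls near the threshold moved easily, and Damage-seq held only 0 to 43 reads per gene and strand, which limits the precision of that assay. Of the 392 RNA responses of members recomputed, 369 kept their direction and side of the threshold, 12 lost a call, 4 gained one and 7 changed sign without a call in either fit. Among differences of responses these numbers were 394, 21, 5 and 12 of 432. In XR-seq, 1 value changed sign with a call, the NTS of Gadd45gip1 in kidney against lung, 0.15 in the reported fit and -0.66 with DESeq2 (adjusted p = 0.0488), and 14 ratios, 13 TS and 18 NTS differences changed sign without one. For control levels between organs, both scalings were added after the data were seen, and of 48 values 38 kept direction and side, 5 lost a call, 3 gained one and 2 changed sign without a call. The cause of the changes below was not tested, except that settings with fewer samples or genes differ in those.

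Gadd45g in kidney was 1.39 with library size alone and 1.38 with DESeq2, and neither passed. Gadd45b in liver was 2.21 with each organ fitted alone and did not pass. Gadd45g passed in liver at 1.15 and in lung at 1.63 with the 16 libraries kept apart. The Gadd45a differences between kidney and liver and between kidney and lung were 2.47 and 2.42 with DESeq2 size factors and did not pass. The Damage-seq ratio of Gadd45g was -1.41 without division by GG and passed.

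Same-numbered control and cisplatin libraries deviated together with a correlation of 0.306 for kidney, 0.191 for liver, 0.0575 for lung and 0.279 for spleen over 18419 genes. The labels give no shared animal or batch for a number and there are 2 pairs an organ, so the replicate block was kept as an alternative. The paper states that it adjusted for a known batch with ComBat. With 16 libraries the replicate block moved the number of genes called from 1260 to 2042 for kidney, 1017 to 1546 for liver, 540 to 1026 for lung and 85 to 117 for spleen. With an organ fitted alone it moved from 780 to 3165 in kidney and from 0 to 950 in liver. Gadd45g passed in lung at 1.59 with the block and 16 libraries, as it did without the block, and in liver its adjusted p went from 0.04996 to 0.0588. In liver fitted alone, the block brought Gadd45b (2.22) and Gadd45g (1.21) past the threshold. It changed no other call of a member against the fit of the same libraries without it.

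The numbers of genes called, 591 for kidney, 521 for liver, 65 for lung and 28 for spleen, moved by over 1.5 times in many settings. With the 16 libraries kept apart they were 1260, 1017, 540 and 85. With library size alone they were 344, 317, 23 and 18. Against 0 in place of 0.4 they were 1208, 918 and 115 in kidney, liver and lung. With each organ alone they were 0 in liver (edgeR, 1242 genes at an unadjusted p under 0.05, and 611 called by DESeq2 over all organs) and 314 in lung. Without the filter they were 177 in lung and 45 in spleen, and with DESeq2 147 and 50.

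Leaving out 1 library gave 1.36 to 1.51 for Gadd45g in kidney, lost without any kidney library or any cisplatin library of lung or spleen, and 1.87 to 2.54 for Gadd45b in liver, lost without control replicate 1. The Gadd45a differences ran from 2.34 to 2.76 (kidney minus liver), 2.37 to 2.58 (kidney minus lung) and 2.61 to 3.17 (kidney minus spleen). The Damage-seq ratio of Gadd45a ran from -2.82 to -1.28 and was lost without liver or spleen replicate 1. Genes called ran from 98 (without kidney cisplatin replicate 1) to 1187 in kidney, from 171 (without liver control replicate 1) to 2128 (without liver cisplatin replicate 1) in liver, from 0 (without either lung cisplatin library, with 1108 and 826 genes at an unadjusted p under 0.05) to 226 in lung, and from 18 to 97 (without spleen cisplatin replicate 2) in spleen.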
